A study of Mus musculus with 6 samples.

Results

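The genes described here are 9 antiviral effectors, genes that interferon is known to induce and whose products act against viruses, taken outside the oligoadenylate synthetase family: Ifi27, Cmpk2, Xaf1, Mx1, Mx2, Parp14, Helz2, Bst2 and Rtp4. They were chosen by their measured log2 differences between neutrophil co-culture and the other groups, known from earlier readings of these same arrays, and all 9 were among the 22180 genes measured, each by 1 probe set named with that gene alone. Their levels in the neutrophil group therefore describe the genes chosen and carry no test here. The choice did not rest directly on the comparison of B-cell co-culture with culture alone, which was tested, although it shares arrays with the comparisons that were used.

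The cells were DP42, a mouse line of multiple myeloma, a cancer of plasma cells. In each of the 3 groups the same cells were kept for 24 h, without a partner, with mouse B cells (which the design text names as the control) or with mouse neutrophils (called "neutrophils (IMC)" in 1 label and myeloid cells in another), then sorted by flow cytometry where they had been mixed, and total RNA was hybridised to 2 arrays per group. The labels give no genotype, age or source for the partner cells. They also do not say that paired arrays stem from independent cultures, so every SE and p here measures the spread of these samples alone and that spread may be technical. Levels are log2 units, made by the authors with RMA, and 1 unit is a doubling of signal.

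Type I interferons bind a receptor (Ifnar1 and Ifnar2) with the attached kinases Jak1 and Tyk2. The signal reaches transcription factors, Irf9 among them, that bind interferon-stimulated response elements in DNA and switch on a large set of genes. The 9 genes sit at the end of that pathway and act at different steps of infection: Mx1 and Mx2 are dynamin-like GTPases that block incoming viral particles or their transcription, Bst2 (tetherin, also known as the HM1.24 antigen of plasma and myeloma cells) holds budding virus at the cell surface, Cmpk2 is a mitochondrial nucleotide kinase, Parp14 attaches ADP-ribose to proteins, Helz2 is a helicase, Ifi27 is a small membrane protein found at mitochondria, Xaf1 binds the apoptosis inhibitor XIAP, and Rtp4 helps receptors reach the cell surface and restrains some RNA viruses.

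Because the members are known as targets of 1 pathway, their promoters were read for the core of the response element, spelled GAAANNGAAA and searched on both strands. Windows from 250 bases before to 50 after a transcript's start, from RefSeq on GRCm38.p6, matched 4 of the 9, Cmpk2, Xaf1, Helz2 and Bst2, with 1 window each. The element was in the Bst2 window alone of these 4, as 2 matches that overlap, from -130 to -121 and from -124 to -115 relative to the start. A GAS-type motif, TTCNNNGAA, was also found there from -136 to -128 and overlaps the first match. After the windows had been seen, the shorter spacing GAAANGAAA was searched as well, and it was found 11 to 19 bases into the transcript of Xaf1 and 18 to 26 bases into that of Helz2. The sequences that hold these letters are shown 5′ to 3′ on the gene's strand with the GAAA repeats in capitals: the 250 bases before the start of Bst2 (chr8:71537473-71537722, minus strand), and 30 bases around the match in Xaf1 (chr11:72301629-72301658, plus strand) and Helz2 (chr2:181241991-181242020, minus strand).
Bst2: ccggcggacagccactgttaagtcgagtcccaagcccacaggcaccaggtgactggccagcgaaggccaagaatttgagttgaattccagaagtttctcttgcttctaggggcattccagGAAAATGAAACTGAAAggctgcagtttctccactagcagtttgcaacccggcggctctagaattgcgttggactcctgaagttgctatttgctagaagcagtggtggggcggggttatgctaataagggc
Xaf1: tgtgtgcaaaGAAACGAAActccacagaag
Helz2: cccaggggcaGAAACGAAActgatcgctac
GAAANNGAAA was in 3.44% and GAAANGAAA in 3.17% of all 32851 windows, and TTCNNNGAA in 8.30%. Over a list of other antiviral effectors, 18 of the 40 genes with a window held GAAANNGAAA and 8 held GAAANGAAA, against 657 and 576 of 16990 measured genes. A match describes letters only, and other transcript starts of these genes were not searched.

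Both neutrophil arrays lay above all 4 other arrays for 8 of the 9 genes, Rtp4 being the exception, against 23.4% of all genes. By limma's test over all genes, 6 of the 9 passed at an adjusted p under 0.05 as higher with neutrophils than alone (all but Mx2, Bst2 and Rtp4), where 0.131% of all genes did so, and 2 of the 9, Ifi27 and Cmpk2, passed as higher with neutrophils than with B cells, where 0.0316% did. In both comparisons 0 of the 9 passed as lower, as 1.36% and 0.018% of all genes did. These counts restate the choice of the genes and are given as a description. The median difference of the 9 was 0.57 against culture alone and 0.68 against B cells, beside 0.02 and 0.01 for all genes. Brighter genes stood higher. Over all genes no dimmer than the median gene, where 7 of the 9 lie, the medians were 0.11 and 0.13. Both comparisons use the same neutrophil arrays. On these bulk arrays, more RNA per cell and more cells carrying the RNA cannot be told apart.

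**Figure D1:**
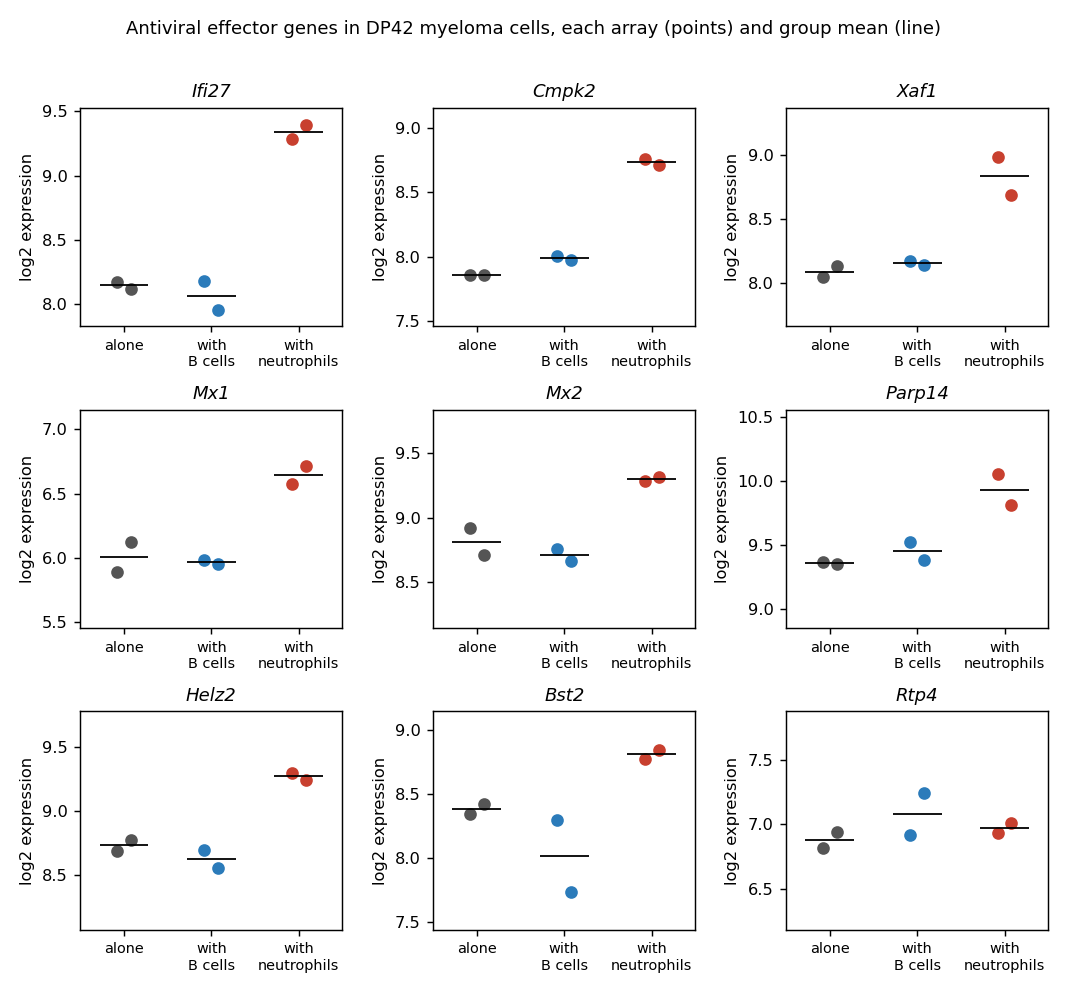
Level of each of the 9 genes (log2, vertical axis, every panel spanning the same range) in the 2 arrays of each group (points) with the group mean (line). Both neutrophil arrays stand above all others in every panel but that of Rtp4.

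Ifi27, the mitochondrial membrane protein, showed the widest separation of the 9. It stood at 8.17 and 8.12 in culture alone, 8.18 and 7.95 beside B cells and 9.28 and 9.40 beside neutrophils. The lower neutrophil array was 1.11 above the highest of the other 4, and the group means differed by 1.20 ± 0.11 (SE, n = 2 a group) from culture alone, or 2.29-fold, and by 1.27 ± 0.11 from B cells, or 2.42-fold. Ifi27 had the third largest rise of all genes against B cells and the fourth largest against culture alone.

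Cmpk2, which supplies nucleotides in mitochondria, was the most even of the 9 between replicates. Its arrays read 7.86 and 7.86 in culture alone, 8.004 and 7.97 beside B cells and 8.76 and 8.71 beside neutrophils. The difference was 0.88 ± 0.09 from culture alone (1.84-fold) and 0.75 ± 0.09 from B cells (1.68-fold).

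Xaf1 is the member tied to cell death. It read 8.05 and 8.13 in culture alone, 8.17 and 8.15 beside B cells and 8.98 and 8.69 beside neutrophils, so its neutrophil arrays were 0.29 apart, the widest such gap of the 9. It stood 0.75 ± 0.12 above culture alone and 0.68 ± 0.12 above B cells, and these became 0.60 and 0.53 without neutrophil replicate 1.

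The Mx GTPases were measured at different brightness, which is not a difference in abundance because probe sets are not on a common scale. Mx1 read 5.89 and 6.13 in culture alone, 5.99 and 5.95 beside B cells and 6.57 and 6.72 beside neutrophils. Those 4 arrays without neutrophils lay below the lower quartile of genes (6.28 to 6.41), and background was not measured here, so the 1.56-fold over culture alone (0.64 ± 0.11) and 1.60-fold over B cells (0.68 ± 0.11) are not exact. Mx2, which lies near it on chromosome 16, read 8.92 and 8.71 in culture alone, 8.75 and 8.66 beside B cells and 9.29 and 9.32 beside neutrophils. It differed by 0.49 ± 0.10 from culture alone and 0.59 ± 0.10 from B cells, and its arrays did not overlap between the neutrophil group and either other group.

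Bst2, the budding block, was the least even gene. It read 8.34 and 8.42 in culture alone, 8.30 and 7.74 beside B cells and 8.77 and 8.85 beside neutrophils. The 2 B-cell arrays differed by 0.56, more than the 0.43 ± 0.16 between neutrophil co-culture and culture alone. That SE takes in the B-cell arrays, whose gap was the widest of the 3 groups. The difference from B cells, 0.79 ± 0.16 (1.73-fold), became 0.51 when B-cell replicate 2 was left out and 1.07 when replicate 1 was. When the level of 1394 chemosensory receptor genes (olfactory and vomeronasal), averaged per array and lowest in the neutrophil arrays, was added to the fit, the difference from culture alone turned to -0.35. That fit cannot fully part the average from the neutrophil group.

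Parp14 and Helz2 act on proteins and nucleic acids inside the cell, the former by ADP-ribosylation and the latter as a helicase. Parp14 read 9.37 and 9.35 in culture alone, 9.52 and 9.39 beside B cells and 10.05 and 9.81 beside neutrophils, a difference of 0.57 ± 0.11 from culture alone and 0.48 ± 0.11 from B cells. Helz2 read 8.69 and 8.78 in culture alone, 8.70 and 8.55 beside B cells and 9.30 and 9.24 beside neutrophils, a difference of 0.54 ± 0.10 from culture alone and 0.65 ± 0.10 from B cells. Neither gene's arrays overlapped between the neutrophil group and the others.

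Rtp4 went against the choice of the set as induced genes. It read 6.82 and 6.94 in culture alone, 6.92 and 7.24 beside B cells and 6.93 and 7.01 beside neutrophils. All 3 groups overlapped, and the highest array was B-cell replicate 2. The difference was 0.09 ± 0.12 from culture alone (95% interval -0.19 to 0.37) and -0.11 ± 0.12 from B cells (-0.39 to 0.17), the latter 0.05 without B-cell replicate 2. All 6 arrays lay below the median gene, so a small change may not be visible. Among the 9, Rtp4 was also the gene whose profile over the 6 arrays did not follow the mean of the other 8 (r = -0.16), while 7 of them had r from 0.94 to 0.99 and Bst2 0.80. These r describe 6 arrays in 3 groups and mostly reflect the neutrophil arrays.

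**Figure D2:**
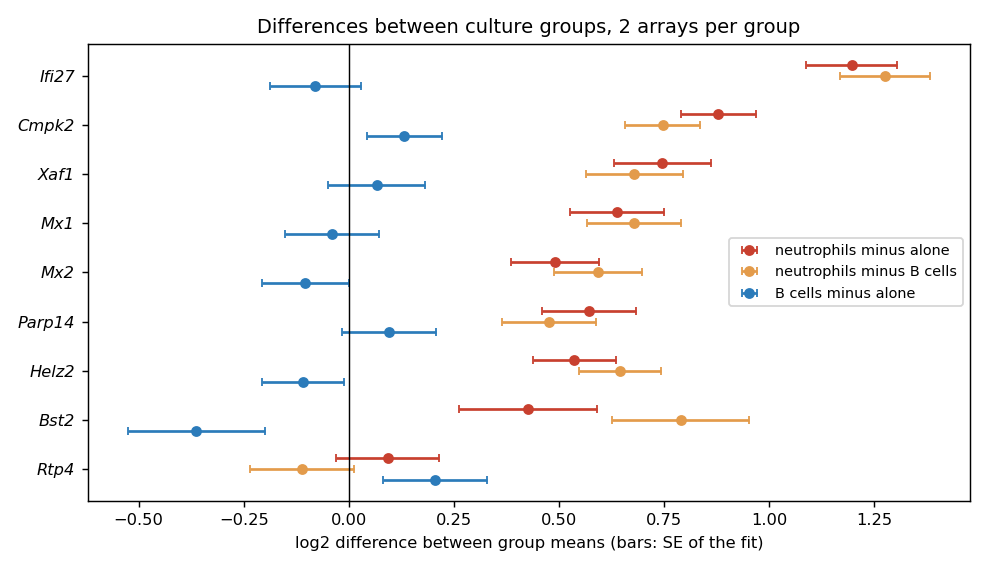
Log2 difference between group means for each gene (points) with the SE of the fit (bars), for neutrophils minus alone, neutrophils minus B cells and B cells minus alone, 2 arrays per group. The first 8 genes lie between 0.43 and 1.27 in both neutrophil comparisons, and Rtp4 lies near 0.

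The second question was whether B cells, the study's control partner, moved these genes. In limma's test of B-cell co-culture against culture alone 0 of the 9 passed (adjusted p = 0.9999 for each), as did 0.0% of all genes in either direction, with 0 of the 9 and 869 of all genes at an unadjusted p under 0.05. The median difference of the 9 was -0.04, beside 0.00 for all genes, with 4 of 9 positive against 49.5% of all genes. It turned to 0.08 without alone replicate 2, 0.03 without B-cell replicate 2 and 0.00 without alone replicate 1. With eBayes using a trend and robust settings 1 gene of the whole table passed, and 0 of the 9.

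The intervals show what sizes of effect are left possible under the fit of all arrays, whose SE takes in the neutrophil arrays as well. Over all genes the median gap between replicates was 0.164 for B cells, against 0.082 for culture alone and 0.087 for neutrophils. For B cells against culture alone the intervals may therefore be too narrow. For Ifi27 the difference with B cells was -0.08 (95% interval -0.33 to 0.17), for Mx1 -0.04 (-0.29 to 0.22), for Mx2 -0.10 (-0.34 to 0.14) and for Helz2 -0.11 (-0.33 to 0.12). Cmpk2 at 0.13 (-0.07 to 0.34), Xaf1 at 0.07 (-0.20 to 0.33) and Parp14 at 0.10 (-0.16 to 0.35) had both B-cell arrays above both alone arrays, which 13.5% of all genes had too. Bst2 at -0.36 (-0.74 to 0.01) had both B-cell arrays below both alone arrays, as 13.5% of all genes had, and was -0.08 without B-cell replicate 2 and -0.64 without replicate 1. Rtp4 at 0.20 (-0.08 to 0.48) overlapped.

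The replicates of a group differed in which members were higher. In the B-cell arrays 8 of the 9 were higher in replicate 1 than in replicate 2, by a median of 0.09, Rtp4 being lower by 0.32. For all genes that median was 0.01, with 11380 of 22180 higher in replicate 1. In the alone arrays 3 of the 9 and in the neutrophil arrays 4 of the 9 were higher in replicate 1. Over all genes the 2 B-cell arrays correlated at r = 0.9924, against 0.9967 for the alone and 0.9966 for the neutrophil arrays. B-cell replicate 1 was closer to the neutrophil arrays (0.9963 and 0.9947) and to the alone arrays (0.9944 and 0.9954) than to its own replicate. B-cell replicate 2 had 0.9872 and 0.9840 with the neutrophil arrays and 0.9947 and 0.9946 with the alone arrays. The cause was not tested.

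Other signals moved with the neutrophil group, and their part in the values above was not tested. Of 27 neutrophil marker genes 6 were higher and 0 lower with neutrophils than alone, and 2 and 0 against B cells (limma, adjusted p under 0.05 over all genes). Those 2 were Ngp and Ly6c2. Ly6c2 stood 1.40 above culture alone and 1.51 above B cells, and which cells its RNA came from was not tested. At an unadjusted p under 0.05, 10 of the 27 were higher and 3 lower against culture alone, and 8 and 4 against B cells. Of all 22180 genes, 1324 were higher and 2599 lower at that p against culture alone, and 1797 and 2652 against B cells. Of the 27 differences 20 and 17 were positive, beside 54.4% and 51.7% of all genes. The lowest of the 27 were Fpr2 at -0.78 and -0.82 and Stfa1 at -0.77 and -0.65 against culture alone and B cells, neither called. The summed signal of the 27, as log2, was 12.11 in both alone arrays, 12.07 and 12.17 beside B cells and 12.28 and 12.32 beside neutrophils. Ngp, a granule gene of maturing neutrophils, stood at 5.57 and 5.76 in culture alone, 5.93 and 6.11 beside B cells and 7.27 and 7.70 beside neutrophils. S100a8, which forms calprotectin with S100a9, rose 0.61 over culture alone (adjusted p = 0.0321), while S100a9 differed by 0.15 (adjusted p = 0.625) and lactoferrin, Ltf, by 0.23 (adjusted p = 0.320). On the RMA scale no marker reads 0, but several were dim. The lower quartile of genes lay above S100a8 on 5 of the 6 arrays and above Ngp on the 4 without neutrophils, and below S100a9 and Ltf on all. The 6 marker calls against culture alone became fewer without any single array, and the list median ran from 0.13 to 0.26. Against B cells more markers were called, in both directions, without B-cell replicate 1, as were many more of all genes. Calls against B cells stayed or became fewer without any other array, and the list median ran from 0.10 to 0.18. The 14 B cell markers, 9 plasma cell, 11 monocyte and macrophage, 8 dendritic cell, 12 T and NK cell and 6 erythroid and platelet markers had 0 genes called in any comparison, with at most 2 higher and 2 lower per list at an unadjusted p under 0.05. Without B-cell replicate 1 some genes of all these lists but the erythroid and platelet list were called against B cells, as were many more of all genes. The list medians then ran from -0.07 to 0.09. Without either B-cell replicate, single monocyte and macrophage, B cell and dendritic cell markers were called against culture alone, the first higher and the others lower. Of the defining genes of B cells and plasma cells, Pax5 read 10.94 to 11.08, Irf4 10.68 to 10.98, Xbp1 9.90 to 10.18 and Sdc1 8.38 to 8.67 over the 6 arrays, while Ms4a1, the B cell antigen CD20, read 6.04 to 6.52 and lay below the lower quartile of genes on 4 of the 6. None of the 5 was called. The 14 B cell markers already averaged 9.62 and 9.58 in culture alone, so their list could show little of any RNA from partner B cells. The average of the 1394 chemosensory receptor genes, which were dim on these arrays, was 5.56 and 5.51 in culture alone, 5.27 and 5.59 beside B cells and 5.13 and 5.05 beside neutrophils. As a covariate in limma it left 0 of the 9 called in either comparison, as 0.0% of all genes were called higher. The differences of the 9 then ran from -0.35 to 0.88 against culture alone, with a median of 0.47. Against B cells they ran from 0.17 to 1.03, with a median of 0.53. The average is lowest in both neutrophil arrays, so this fit cannot fully part it from the neutrophil group. No conclusion about the 9 is drawn from it.

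**Figure D3:**
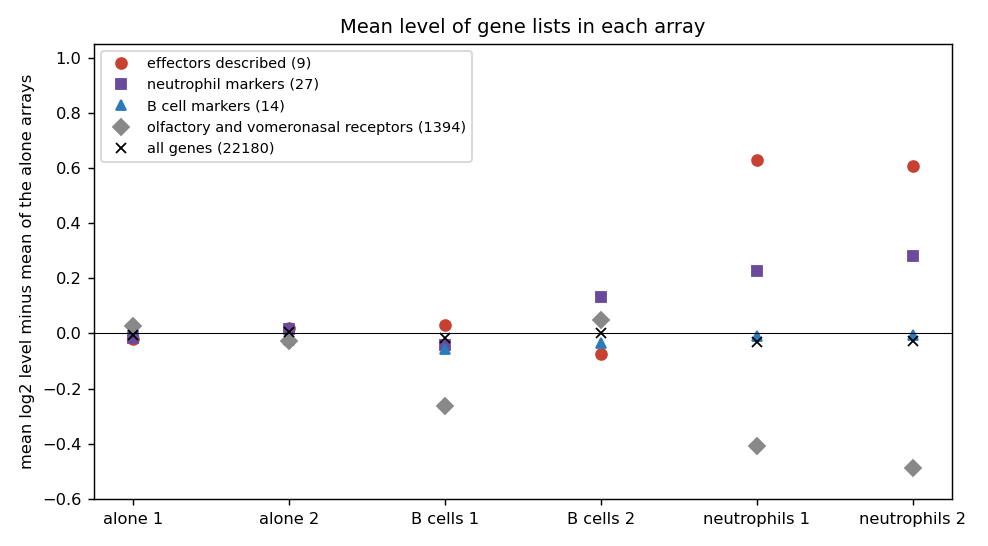
Mean log2 level of the 9 effectors, of neutrophil and B cell markers, of olfactory and vomeronasal receptors and of all genes in each array, relative to the mean of the 2 alone arrays. The effectors and neutrophil markers are highest, and the receptors lowest, in the 2 neutrophil arrays.

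The genes upstream of the effectors were read from lists. Among 10 measured genes of the interferon receptor and its transcription factors, 2 rose with neutrophils in both comparisons, Irf9 and Usp18, a brake on the receptor. Usp18 read 7.33 and 7.47 in culture alone, 7.58 and 7.45 beside B cells and 8.42 and 8.45 beside neutrophils, and Irf9 8.19 and 8.15, 8.19 and 8.25, and 9.15 and 9.12. The other 8 had differences of 0.13 to 0.27 from culture alone and did not pass. The median of all genes no dimmer than the median gene, where 9 of the 10 lie, was 0.11. The 2 calls became 0 against culture alone without either alone replicate or neutrophil replicate 2. Against B cells more of the 10 were called without B-cell replicate 1, as were many more of all genes. Without any other single array none of the 10 was called against B cells. Of 11 oligoadenylate synthetase genes, which make the messenger that activates RNase L, 4 rose over culture alone (Oas2, Oasl2, Oasl1 and Oas1b, by 1.25, 0.67, 0.61 and 0.53) and 1, Oas2, over B cells. Their median difference was 0.23 from culture alone, beside 0.57 for the 9, which were chosen as an induced set with these differences known. The 4 calls were mostly or all lost without an alone or neutrophil replicate. Against B cells more of the 11 were called without B-cell replicate 1, as were many more of all genes. Without any other single array none of the 11 was called against B cells.

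Antiviral effectors outside the set were read from a list of 43 measured genes. Of these, 0 passed in limma against either control, with 17 higher and 2 lower at an unadjusted p under 0.05 against culture alone and 14 and 4 against B cells. Over all 22180 genes these counts were 1324 and 2599 against culture alone and 1797 and 2652 against B cells. With trend and robust eBayes 2 were called higher against culture alone and 0 against B cells. Without B-cell replicate 1 some were called in both directions against B cells, as were many more of all genes, and the list median was 0.12. Without either B-cell replicate a few were also called against culture alone. The median differences of the 43 with all 6 arrays were 0.16 and 0.17, with 31 and 32 positive, beside 54.4% and 51.7% of all genes. The 23 of them no dimmer than the median gene had medians of 0.23 and 0.23, beside 0.11 and 0.13 for all such genes. Values ran from -0.39 for Plscr1 to 0.58 for Eif2ak2, the kinase PKR, against culture alone. Relatives of the members by family were also not called with all 6 arrays. The 12 other measured PARP genes had differences of 0.02 (Parp1) to 0.33 (Parp9) from culture alone, beside 0.57 for Parp14, the 3 other RTP genes -0.32 to -0.17, and the 5 dynamin-type GTPases -0.29 to 0.17. The 11 PARP genes no dimmer than the median gene had a median of 0.20 against culture alone, beside 0.11 for all such genes. Against B cells the medians were 0.20 for the PARP, -0.38 for the RTP and 0.08 for the dynamin-type genes. Without B-cell replicate 1 they were 0.33, -0.45 and 0.12. Some genes of each family were then called, as were many more of all genes. Of 20 interferon genes 0 passed in either comparison, with a median of -0.12 against culture alone and -0.18 against B cells, and no rise of an interferon transcript was called with all 6 arrays. Without B-cell replicate 1 some were called against B cells, mostly lower, as were many more of all genes, and the median was -0.20. Without either B-cell replicate an interferon gene was called higher against culture alone. At an unadjusted p under 0.05, 1 of the 20 was higher and 3 lower against culture alone, and 1 and 4 against B cells. Over all 22180 genes it was 1324 and 2599, and 1797 and 2652. The largest rise of the 20 was that of Ifnab, 0.35 ± 0.10 over culture alone and 0.25 ± 0.10 over B cells (limma, adjusted p = 0.137 and 0.232). Mixed cells were sorted before RNA was taken, so interferon transcripts of the partner cells were not measured here.

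**Figure D4:**
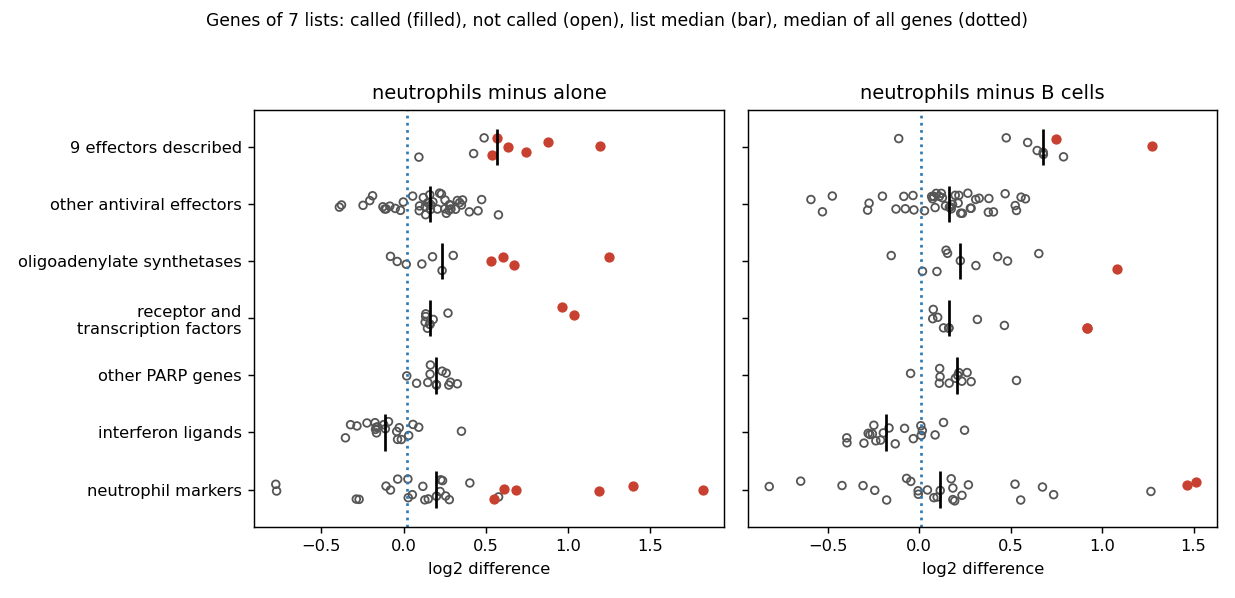
Log2 differences of single genes (circles, filled where called at an adjusted p under 0.05) by list, for neutrophils minus alone (left) and minus B cells (right), with the list median (bar) and the median of all genes (dotted). Outside the 9 effectors the called genes of these lists are oligoadenylate synthetases, Irf9 and Usp18, and neutrophil markers.

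Genes most like the 9 were taken as those with the highest Pearson r, over the 6 arrays, with the mean profile of the set, among 4427 other genes spanning at least 0.5 between arrays. The first was Rnf213, an interferon-induced ubiquitin ligase on the list of other effectors (r = 0.995, 0.45 ± 0.10 above culture alone, not called), followed by Usp18 (0.989), Irf9 (0.986) and the surface antigen gene Ly6c2 (0.984), which is on the neutrophil marker list. The next were H2bu1-ps, Mir491, the lymphocyte adaptor gene Sit1 and Gm13498 with r from 0.974 to 0.983, of which H2bu1-ps and Mir491 lay below the lower quartile of genes on all 6 arrays. In all, 29 genes had r over 0.95. The arrays share their groups and their labelling, so this likeness describes a step between the neutrophil arrays and the rest.

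The calls changed when single arrays were left out. Where that left 1 array in a group compared, the fit took its spread from the other groups, and the lone array was assumed to vary as they did, so these p-values do not measure the stability of the genes. Against culture alone, fewer members were called without any alone or neutrophil array, and more without either B-cell array. Their median difference was 0.57 with all 6 arrays and 0.51 to 0.58 without 1 array. Against B cells, more members were called without B-cell replicate 1 and fewer without any other array. The median was then 0.58 to 0.70, beside 0.68 with all 6 arrays. The members were chosen with these differences known, so neither the calls nor the medians test their rise. With quantile normalisation the members called against culture alone and B cells were 2 and 1 (0.0496% and 0.018% of all genes called higher). In a fit of only the 4 arrays compared they were 8 and 0 (1.00% and 0.00451%). Centring on array medians gave 7 and 5 (0.261% and 0.0812%), and trend and robust eBayes 7 and 4 (0.221% and 0.0586%). Of the 7 members no dimmer than the median gene, 6 and 6 were called among such genes (0.189% and 0.37%). When 1 array was left out, the share of all genes called higher rose or fell in the same direction as the called members.

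**Figure D5:**
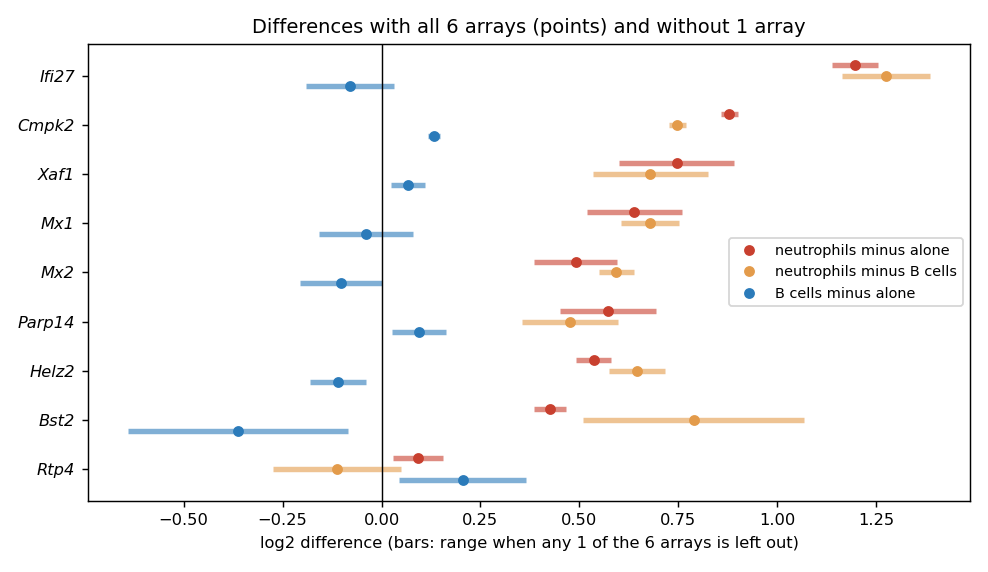
Log2 differences of the 9 genes with all 6 arrays (points) and their range when any 1 array is left out (bars), for the 3 comparisons. The neutrophil differences of the first 8 genes stay between 0.36 and 1.39, while Bst2 spans 0.51 to 1.07 against B cells and Rtp4 crosses 0.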

How the data were processed

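Total RNA of 6 samples was measured on Affymetrix arrays. The deposited values are log2 expression per probe set. Per the submitters' processing notes the authors used RMA, of which no version is given. The log2 scale was read from the values (3.04 to 14.03). Of 41345 probe sets 23521 were named with 1 gene, and the brightest per gene over the 6 arrays was kept (22180 genes). limma 3.58.1 in R 4.3.3 fitted group means on all 6 arrays with no filter (3 residual degrees of freedom, prior 5.55), with eBayes, two-sided p and Benjamini-Hochberg adjustment over all genes. A gene is called at an adjusted p under 0.05. The procedure was tested on simulated data. The members and gene lists were chosen with earlier results of these data known. Named genes were the members, up to 4 called genes per list and direction against culture alone, the 8 most like the members, defining markers and, added later, genes next to the members and the ends of list ranges. Each array's precision is limited by there being 2 per group. Figures were drawn with matplotlib 3.10.9.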

Additional observations from a re-analysis of the deposited data

How the results depend on the processing

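The 331 genes called for neutrophils against culture alone became 70 with quantile normalisation, 555 with centring on array medians, 90 among genes no dimmer than the median gene, 1338 in a fit of only the 4 arrays compared and 0 in limma with the covariate of receptor genes (1254 at an unadjusted p under 0.05). Leaving out 1 array gave 5 to 1338. The 11 called against B cells, 7 higher and 4 lower, became 62 with centring (18 higher and 44 lower), 7 with quantile normalisation, 33 with trend and robust eBayes, 91 among brighter genes, 1 in a fit of 4 arrays and 0 with the covariate (777 at an unadjusted p under 0.05), and 1 to 5453 without 1 array. For B cells against culture alone trend and robust eBayes and the brighter genes each gave 1 call. The cause of these changes was not tested. The median difference of the 9 genes against B cells moved from 0.68 to 0.53 with the covariate and to 0.58 to 0.70 without 1 array, and that of B cells against culture alone ran from -0.058 to 0.080 without 1 array. With the covariate Bst2 against culture alone (-0.345) and Rtp4 against B cells (0.168) changed sign. Without 1 array Rtp4 against B cells ran from -0.273 to 0.049, and for B cells against culture alone Ifi27 ran from -0.191 to 0.032, Mx1 from -0.159 to 0.080 and Mx2 from -0.207 to 0.001. Other values of single genes kept their sign in all settings. With the replicate number as a block, 373 and 9 genes were called against culture alone and B cells, and the called members were 5 and 1 in place of 6 and 2. Deviations of same-numbered replicates correlated at -0.07, 0.07 and -0.15 between groups, so no shift shared by same-numbered arrays was visible. Whether those arrays were prepared together is not known. The brightness of Mx1 and Rtp4, below the median gene on every array, limits what their values can show.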

Other observations

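The members' chromosomal neighbours were read as well, a comparison added after the members' values had been seen. On GRCm38.p6, 4 of the 9 members lie on chromosome 16 (Mx1, Mx2, Parp14 and Rtp4), which holds 3.19% of the measured genes. Of the measured genes directly before and after each member, 0 were called in limma in any of the 3 comparisons. Rsad2, the gene of the antiviral enzyme viperin and the measured neighbour of Cmpk2, stood at -0.12 ± 0.13 (SE) against culture alone and -0.20 ± 0.13 against B cells (adjusted p = 0.623 and 0.357), beside 0.88 and 0.75 for Cmpk2. Its arrays read 6.57 and 6.60 in culture alone, 6.49 and 6.85 beside B cells and 6.52 and 6.42 beside neutrophils, below the median gene of each array. Fam3b, which lies between Mx1 and Mx2, stood at 0.30 ± 0.11 and 0.26 ± 0.11 (adjusted p = 0.219 and 0.243), and Ifi27l2b, next to Ifi27, at -0.08 ± 0.11 and -0.05 ± 0.11 (adjusted p = 0.688 and 0.776).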
